A study of Mus musculus with 6 samples.

Results

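The genes described are the cytochrome P450 genes, whose colonic transcripts were compared between mice lacking NHE3 and wild-type mice. NHE3, the product of Slc9a3, is the exchanger through which gut epithelial cells absorb sodium from the lumen in return for protons. NHE3-/- mice and NHE3+/+ littermates were both 6 to 8 weeks old, with 3 Affymetrix mouse MOE430 2.0 arrays for each genotype. RNA was taken from the dissected whole colon of animals given no stated treatment, and every array received biotin-labelled material from a single sample. Whether each array stands for its own animal is not in the labels, and the p-values therefore cover only the spread among these samples, which could be technical. The labels also do not name the disrupted part of Slc9a3, the genetic background or the sex. A P450 gene was counted where the platform annotation named it alone with a symbol of Cyp followed directly by a digit, Cyp51 and Cyp24a1 excepted. This gave 71 genes with 93 probe sets, of 18193 genes and 45101 probe sets in all. The probe set with the highest mean signal over the 6 arrays stood for each gene, the only one for 54 genes and the brightest of several for 17. A further 4 probe sets that name a P450 gene together with another gene were left out.

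Cytochromes P450 are haem enzymes of the endoplasmic reticulum and mitochondria that insert an oxygen atom into lipid-soluble substrates, with electrons passed on by a reductase or a ferredoxin. Families 1 to 3 act mostly on drugs, dietary compounds and other foreign chemicals, and family 4 hydroxylates fatty acids and eicosanoids. Families with higher numbers hold mostly enzymes of fixed biosynthetic routes to bile acids, steroid hormones, retinoic acid breakdown products and vitamin D metabolites. In the gut the enzymes sit chiefly in the absorptive epithelium, where they meet dietary compounds ahead of the liver.

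In all 14 of the 38 P450 genes tested passed the test (36.8%), against 14.0% of all genes tested, and most of them were higher in NHE3-/- colon. The group was led by the Cyp2d cluster of chromosome 15, in which 6 of 8 genes were higher, Cyp2d9 by 7.13-fold. Cyp27a1, which hydroxylates the sterol side chain in bile acid synthesis, was 3.87-fold higher, and the fatty acid hydroxylases Cyp4f16 and Cyp4f14 were 2.61-fold and 2.30-fold higher. Cyp11a1, Cyp3a25 and Cyp2c70 were also higher, while Cyp2c65 and Cyp20a1 were lower. Each of these calls was lost in some alternative fit, that of Cyp20a1 in 11 of 18. The other probe sets of Cyp11a1 were dim and did not show its difference.

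Signals are the deposited intensities on a linear scale, and folds are ratios of their group means. Log2 fold changes are NHE3-/- minus NHE3+/+ on the scale log2(signal + 31.4), which understates the change of dim genes, and are given with limma's standard error (SE). Adjusted p-values are those of limma after Benjamini-Hochberg adjustment across 27024 tested probe sets, and a gene was called where this value was under 0.05. Of the 71 P450 genes, 38 passed the filter on low signals and 33 did not. Among the 38 tested, 12 were called higher (31.6%) and 2 lower (5.26%), while 24 were not called. Over all 12552 genes tested with 1 probe set each, 6.42% were called higher and 7.55% lower, 14.0% in all. With no filter, 12 of the 71 were called higher and 1 lower, against 3.58% and 3.65% of 18193 genes (7.23% in all). All NHE3-/- signals lay above all NHE3+/+ signals for 16 of the 38, against 14.8% of genes tested, and below them for 6, against 22.0%. The median log2 fold change of the 38 was 0.39, against -0.07 for the genes tested, with 26 values above 0 and 12 below. By mean log2 value, on which the filter was set, the lowest gene inside was Cyp21a1 (mean signal 70.2) and the highest outside was Cyp11b2 (mean signal 59.2). Cyp11b1, Cyp21a1 and Cyp4f39 passed although their NHE3+/+ mean alone lay below the filter, and Cyp2e1 and Cyp4a31 although their NHE3-/- mean did. None of these 5 was called.

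**Figure D1:**
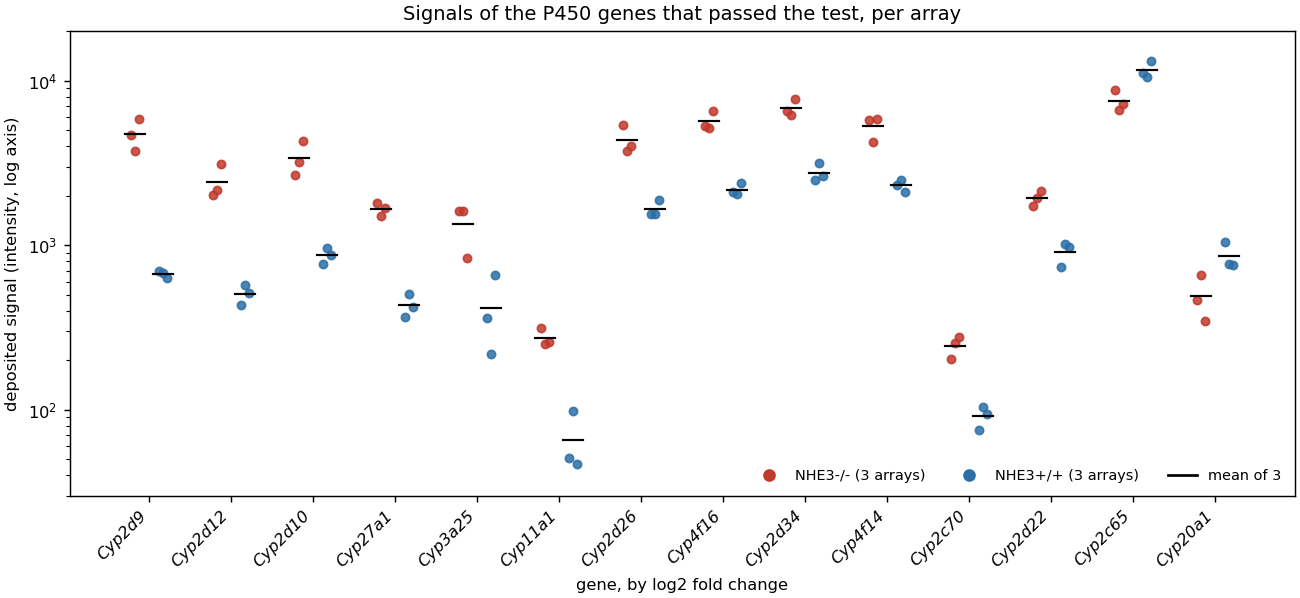
Deposited signal (intensity, log axis) of the 14 called P450 genes on each of the 3 NHE3-/- arrays (left of each pair) and 3 NHE3+/+ arrays (right), with bars at the group means, ordered by log2 fold change. The genes were chosen by the test on these same arrays, so the lack of overlap between the 2 groups in each of them adds no support. Cyp2c65 and Cyp20a1 are the 2 with lower NHE3-/- signals.

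Several checks of the arrays bear on these values. Correlations of log2 signals were 0.965 to 0.973 within a genotype and 0.932 to 0.959 between genotypes. The brighter Slc9a3 probe set had signals of 5970, 4266 and 3665 in NHE3-/- colon, against 5908, 5647 and 6669 in NHE3+/+ colon, a log2 fold change of -0.42 (adjusted p = 0.120). Its dimmer probe set went the other way, with 473, 609 and 265 in NHE3-/- colon, against 346, 345 and 108 in NHE3+/+ colon. Its log2 fold change was 0.76 (adjusted p = 0.230), and neither probe set was called. The disrupted part being unnamed, these values neither bear out nor go against the labels. Xist, the transcript of the inactive X chromosome, had signals of 2639, 1929 and 12.3 in NHE3-/- colon, against 4.3, 8 and 2 in NHE3+/+ colon. NHE3-/- array 3 thus stood apart from the other two of its group in this transcript, and a fit with array 3 alone is given for each P450 gene whose call it ended. In that fit the spread comes from the NHE3+/+ arrays alone, and the single NHE3-/- array is assumed to vary like them. The Y-linked Kdm5d had signals of 341, 406 and 733 in NHE3-/- colon, against 768, 654 and 784 in NHE3+/+ colon, and Eif2s3y had 933, 1088 and 1355 in NHE3-/- colon, against 1434, 1457 and 1809 in NHE3+/+ colon. NHE3-/- arrays 1 and 2 thus held both Xist and Y-linked transcripts, with lower Kdm5d and Eif2s3y signals than the other 4 arrays, while the signals of Uty, also Y-linked, overlapped. On those arrays the parts of sex and genotype cannot be told apart.

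Markers of some cell types differed by genotype, while those of others did not. Among all genes tested, 14.0% were called in either direction. Of 10 markers of absorptive colonocytes 6 were higher and none lower, and their summed signal was 236972 to 305757 in NHE3-/- colon, against 177819 to 219055 in NHE3+/+ colon. Of 8 tested markers of crypt base and dividing cells 6 were lower and none higher, with sums of 8159 to 9827 in NHE3-/- colon, against 10899 to 14057 in NHE3+/+ colon. Of 4 tested adipose markers 3 were lower and 1 higher, with sums of 766 to 1374 in NHE3-/- colon, against 1605 to 6088 in NHE3+/+ colon. Of 5 tested markers of colon and hindgut, 3 were higher, Hoxb13, Hoxa13 and Hoxd13, and Cdx2 was lower, with sums of 17603 to 21940 in NHE3-/- colon, against 11888 to 14484 in NHE3+/+ colon. Hoxb13, a positional gene of the hindgut, had signals of 8486, 9834 and 12865 in NHE3-/- colon, against 3518, 4379 and 2811 in NHE3+/+ colon. Of 4 tested pancreas markers 1 was lower, Clps, with signals of 166, 329 and 252 in NHE3-/- colon, against 1519.8, 1005 and 1656 in NHE3+/+ colon, and the sums were 5202 to 5899 in NHE3-/- colon, against 7079 to 9298 in NHE3+/+ colon. Of 8 goblet markers 1 was lower, as was 1 of 8 of fibroblasts and matrix. Of 6 tested B and plasma cell markers 1 was higher, Igha, at a log2 fold change of 0.58, and 1 lower, Fcer2a, at -2.00. The others were not called, with 0.60 for Jchain, -1.13 for Cd79a, -1.42 for Ms4a1 and -0.90 for Cr2. None was called among the tested markers of smooth muscle (7), endothelium (5) or lymphatic endothelium (2). The same held for macrophages and dendritic cells (7), T cells (5) and enteric neurons and glia (2). In whole colon, fewer cells of a type and less RNA per cell cannot be told apart. The part of these cell types, and of the stretch of colon sampled, in the P450 differences was not tested.

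The Cyp2d genes encode liver and gut enzymes of drug and steroid oxidation, and in the mouse lie in a row on chromosome 15. Promoter sequences of Cyp2d9, Cyp2d10, Cyp2d26 and Cyp2d40 were in the RefSeq table of GRCm38.p6, and they are shown because a long identical stretch is shared by Cyp2d9 and Cyp2d10, both called higher, and Cyp2d40, which was not called. Each line gives the 120 bases before the annotated start, 5′ to 3′ on the gene's strand. They lie at chr15:82452257-82452376 on the plus strand for Cyp2d9, and on the minus strand at chr15:82407195-82407314 for Cyp2d10, chr15:82794246-82794365 for Cyp2d26 and chr15:82764123-82764242 for Cyp2d40. Capitals mark the shared stretch CAGAGGACAAAGGGCAACC and TTTATA, the TATA box motif TATAAA read on the other strand.

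Cyp2d9: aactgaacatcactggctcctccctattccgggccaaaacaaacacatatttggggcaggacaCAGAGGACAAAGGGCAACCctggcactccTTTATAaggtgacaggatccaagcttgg
Cyp2d10: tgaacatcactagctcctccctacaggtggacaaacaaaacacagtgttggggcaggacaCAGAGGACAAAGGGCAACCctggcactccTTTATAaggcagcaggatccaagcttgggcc
Cyp2d26: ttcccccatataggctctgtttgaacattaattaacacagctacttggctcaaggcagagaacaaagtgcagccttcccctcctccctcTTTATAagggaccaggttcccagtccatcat
Cyp2d40: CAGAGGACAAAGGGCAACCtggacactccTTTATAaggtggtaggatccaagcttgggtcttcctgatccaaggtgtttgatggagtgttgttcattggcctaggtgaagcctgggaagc

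The 19-base stretch was taken as the longest run of letters that the windows of Cyp2d9, Cyp2d10 and Cyp2d40 share. Its presence in these 3 was therefore set in advance, and is no finding about genes called higher. It was in no other of 27025 genes with a window, in the 250 bases before the start on both strands. The share of 0.0111% is thus these 3 genes alone. Cyp2d12, Cyp2d22 and Cyp2d34, also called higher, had no window, so the stretch could not be looked for in them. Over those 250 bases Cyp2d9 and Cyp2d10 were 82.3% identical in a global alignment, while Cyp2d9 was 52.0% identical to Cyp2d26 and 48.6% to Cyp2d40, against 49.1% to Cyp4f14 of another family. The Cyp2d40 start is annotated further downstream, so its shared stretch lies at another distance from the start. Windows set by the start are thus out of step for Cyp2d40, and its 48.6% does not measure how alike the promoters are. TATAAA on either strand was present in 14.3% of all windows, and in 4 of 9 windows of P450 genes called higher, 7 of 16 of those not called and 1 of 2 called lower. The motif thus occurred in called and uncalled P450 genes alike. A match is only a match of letters.

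All 8 Cyp2d genes on the array passed the filter, 6 were called higher and none lower, and their median log2 fold change was 1.33. Over all genes tested, 6.42% were called higher and 7.55% lower, with a median of -0.07. Cyp2d9, a steroid hydroxylase of male mouse liver, had signals of 4687, 3723 and 5859.9 on NHE3-/- arrays 1, 2 and 3, against 697, 676 and 627 on NHE3+/+ arrays 1, 2 and 3. The lowest NHE3-/- signal was far above the highest NHE3+/+ signal, and the mean was 7.13-fold higher, the largest ratio of the called P450 genes. Its log2 fold change was 2.75 (adjusted p = 5.48e-06, SE 0.15). Cyp2d12 had signals of 2009, 2169.5 and 3137 in NHE3-/- colon, against 433, 572 and 510.3 in NHE3+/+ colon, a log2 fold change of 2.18 (adjusted p = 4.27e-05, SE 0.18). Cyp2d10 had signals of 2666, 3217 and 4284 in NHE3-/- colon, against 774, 965 and 876 in NHE3+/+ colon, a log2 fold change of 1.90 (adjusted p = 7.70e-05, SE 0.17). Both were higher on every NHE3-/- array by a wide gap, 4.83-fold and 3.89-fold in the means.

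Cyp2d26 had signals of 5346, 3764 and 3987 in NHE3-/- colon, against 1539, 1545 and 1894 in NHE3+/+ colon, a log2 fold change of 1.37 (adjusted p = 0.000253, SE 0.15). Cyp2d34 had signals of 6571, 6224 and 7703 in NHE3-/- colon, against 2499.7, 3179 and 2617 in NHE3+/+ colon, a log2 fold change of 1.30 (adjusted p = 0.000128, SE 0.12). Cyp2d22, often set beside the human drug-metabolising enzyme CYP2D6, had signals of 1742, 1932 and 2140.3 in NHE3-/- colon, against 739, 1014 and 973 in NHE3+/+ colon, a log2 fold change of 1.07 (adjusted p = 0.00117, SE 0.15). In all 3 genes the groups were well apart, and the means differed by 2.63-fold, 2.47-fold and 2.13-fold. A dimmer probe set of Cyp2d22 was also called higher, with a log2 fold change of 0.58 (adjusted p = 0.0426).

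Cyp2d40 had signals of 152, 109.8 and 101 in NHE3-/- colon, against 83.4, 68.4 and 56.9 in NHE3+/+ colon, which did not overlap, but its log2 fold change of 0.58 (adjusted p = 0.206, SE 0.28) was not called. Cyp2d13 gave 2 answers. Its brighter probe set by mean had signals of 268, 294 and 439 in NHE3-/- colon, against 206, 271 and 276 in NHE3+/+ colon, overlapping between genotypes, with a log2 fold change of 0.35 (adjusted p = 0.328). Its other probe set had signals of 337, 376 and 523 in NHE3-/- colon, against 111, 151 and 159 in NHE3+/+ colon, with a log2 fold change of 1.36 (adjusted p = 0.00361, SE 0.22), and was called higher. Within the NHE3-/- group, 6 of the 8 genes were brightest on array 3, and Cyp2d26 and Cyp2d40 on array 1. With NHE3-/- array 3 alone, whose own spread is then not measured, the 6 genes were still called. These genes are close copies of one another, and how far each probe set reads a single member was not tested.

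The genes around these clusters were read as well, beside the 14.0% of all genes tested that were called in either direction. Of the 5 genes on the array at either side of the Cyp2d cluster, 7 passed the filter, 1 was higher and none lower, with a median log2 fold change of -0.02. The one called was Ndufa6, a subunit of respiratory complex I next to the cluster, at 0.48 (adjusted p = 0.00929). In the Cyp4f cluster of chromosome 17, 2 of 4 tested P450 genes were higher, whereas none of the 3 tested zinc finger genes between them was higher and Zfp871 was lower. None of the 7 tested neighbours outside that cluster was called. Of 8 tested neighbours of the Cyp2c cluster, Plce1 was higher at 0.45 (adjusted p = 0.0464), and Hells and Aldh18a1 were lower at -0.91 (adjusted p = 0.0242) and -1.38 (adjusted p = 0.000128). Of 8 tested neighbours of the Cyp3a cluster, Atp5j2 was higher at 0.43 (adjusted p = 0.0289).

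**Figure D2:**
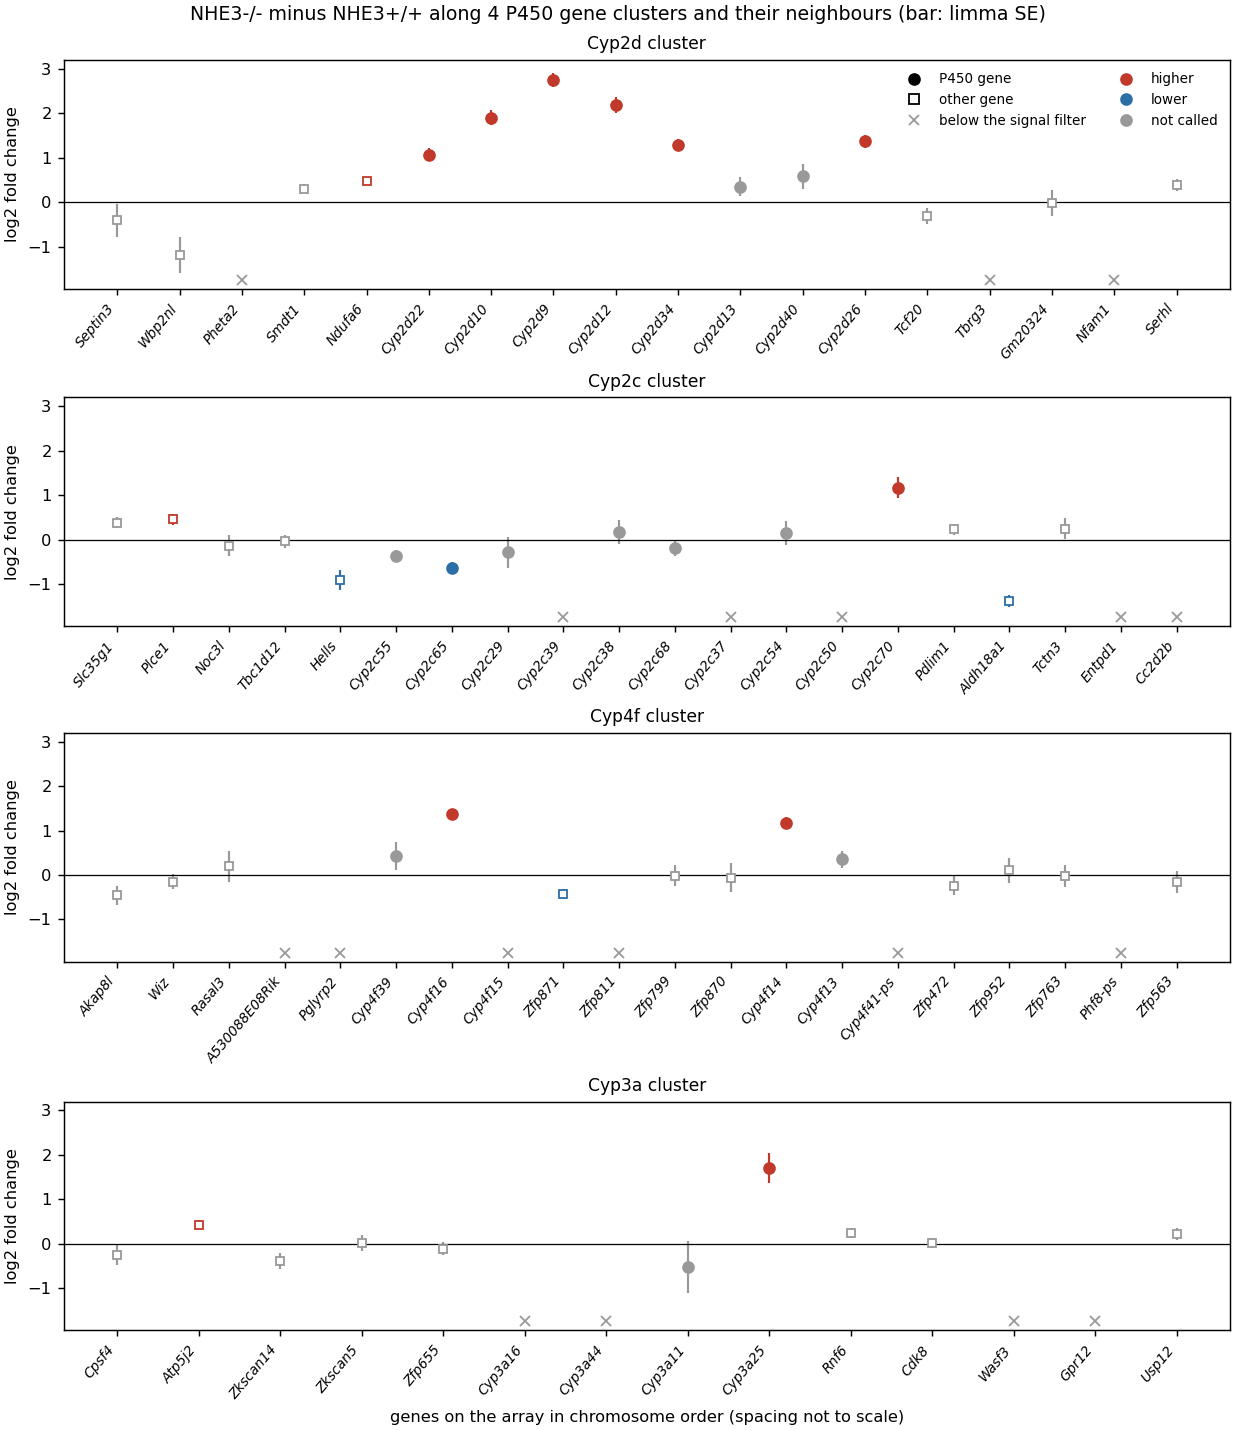
Log2 fold change, NHE3-/- minus NHE3+/+ (bar: limma SE), of P450 genes (filled circles) and other genes (open squares) in chromosome order along the Cyp2d, Cyp2c, Cyp4f and Cyp3a clusters with 5 genes on either side, crosses marking genes below the signal filter. The 8 Cyp2d genes are all above 0 with 6 called, while 1 of their 7 tested neighbours is called, beside 14.0% of all genes tested.

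The Cyp2c genes, epoxygenases and hydroxylases of arachidonic acid and drugs, had 1 call in each direction. Of 11 on the array, 8 passed the filter, 1 was called higher and 1 lower, beside 6.42% and 7.55% of all genes tested. Cyp2c65, an arachidonic acid epoxygenase of the mouse gut, had signals of 8729.8, 6598 and 7225 in NHE3-/- colon, against 11130.3, 10606 and 13275 in NHE3+/+ colon. All NHE3-/- signals were below all NHE3+/+ signals, and the NHE3+/+ mean was 1.55-fold the NHE3-/- mean. The log2 fold change was -0.64 (adjusted p = 0.0101, SE 0.13). Its probe set carries the suffix that the manufacturer gives to sets shared by several transcripts, and which Cyp2c transcripts contribute was not tested. The call was lost in a fit without a mean-variance trend (adjusted p = 0.0815).

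Cyp2c55, its neighbour, which hydroxylates arachidonic acid in mouse colon, had signals of 28432, 27074 and 31318 in NHE3-/- colon, against 32284, 46968 and 34249 in NHE3+/+ colon. The groups did not overlap, but the log2 fold change of -0.37 (adjusted p = 0.111, SE 0.14) was not called. It was called with quantile normalization, at -0.52 (adjusted p = 0.00309), and was -0.20 without NHE3+/+ array 2 (adjusted p = 0.273). Cyp2c68 had signals of 1475, 1119 and 1731 in NHE3-/- colon, against 1905, 1769 and 1291 in NHE3+/+ colon, which overlapped, with a log2 fold change of -0.20 (adjusted p = 0.519). The other dimmer members Cyp2c23, Cyp2c29, Cyp2c38 and Cyp2c54 had log2 fold changes between -0.28 and 0.53 and overlapping groups.

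Cyp2c70, which in mouse liver makes muricholic acids from chenodeoxycholic acid, was the Cyp2c gene called higher. It had signals of 202, 253 and 276 in NHE3-/- colon, against 75, 104 and 94 in NHE3+/+ colon, a 2.68-fold difference in the means. Every NHE3-/- signal was above every NHE3+/+ signal, and the log2 fold change was 1.17 (adjusted p = 0.0102, SE 0.23). With NHE3-/- array 3 alone against the 3 NHE3+/+ arrays it was 1.34 and not called (adjusted p = 0.0615). The promoters of Cyp2c70 and Cyp2c65, which lie near opposite ends of the cluster and were called in opposite directions, follow, because both hold CAAAGTCCA, a core bound preferentially by the hepatic and intestinal receptor HNF4. Capitals mark CAAAGTCCA, AGGTCA (a nuclear receptor half-site) and TTTATA in the 120 bases before the start of Cyp2c70 (chr19:40187287-40187406, minus strand) and of Cyp2c65 (chr19:39060886-39061005, plus strand), from RefSeq on GRCm38.p6.

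Cyp2c70: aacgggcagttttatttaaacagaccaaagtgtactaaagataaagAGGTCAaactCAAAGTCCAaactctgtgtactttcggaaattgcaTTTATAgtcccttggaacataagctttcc
Cyp2c65: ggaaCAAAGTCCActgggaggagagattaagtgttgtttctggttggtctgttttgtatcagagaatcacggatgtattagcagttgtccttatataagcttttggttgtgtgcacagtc

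CAAAGTCCA, read on both strands of the 250 bases before the start, was present in 0.451% of 27025 windows. Among P450 windows it was in 1 of 9 called higher, 1 of 2 called lower and 2 of 16 not called, the last being Cyp2c68 and Cyp3a11. AGGTCA was present in 15.8% of all windows, in 3 of 9 called higher, in 3 of 16 not called and in neither of those called lower. GCGTG, the core to which the aryl hydrocarbon receptor binds, was in 30.9% of all windows, in 2 of 9 called higher, 4 of 16 not called and 1 of 2 called lower. Each of these 3 motifs occurred in called and uncalled P450 genes.

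Other tested genes of family 2 were not called. Cyp2s1, an extrahepatic enzyme of epithelia, had signals of 2665, 1851 and 2772 in NHE3-/- colon, against 2898, 3955 and 3518 in NHE3+/+ colon, which did not overlap. Its log2 fold change was -0.51 (adjusted p = 0.0704, SE 0.17), and it was called without NHE3+/+ array 1, at -0.63 (adjusted p = 0.0477). Without NHE3-/- array 2 it was -0.33 (adjusted p = 0.187). Cyp2f2, which activates naphthalene in mouse airways, had signals of 902, 1039 and 1029.8 in NHE3-/- colon, against 821, 742 and 805 in NHE3+/+ colon and a log2 fold change of 0.31 (adjusted p = 0.138). Cyp2j6, an arachidonic acid epoxygenase, had signals of 645, 626 and 329.6 in NHE3-/- colon, against 712, 646 and 938 in NHE3+/+ colon, lower on all NHE3-/- arrays and lowest on array 3, with -0.53 (adjusted p = 0.176). Cyp2e1, the ethanol-inducible enzyme, was dim and overlapped, with a log2 fold change of -0.66 (adjusted p = 0.270). Of family 1, the aryl hydrocarbon receptor targets, only Cyp1a1 passed the filter. It had signals of 63.4, 52.3 and 88.4 in NHE3-/- colon, against 67.3, 85.6 and 106 in NHE3+/+ colon, overlapping, with a log2 fold change of -0.25 (adjusted p = 0.644).

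Family 3 enzymes oxidise a wide range of drugs and steroids, and 3 of its 5 genes passed the filter. Cyp3a25 had signals of 1606, 1611 and 832 in NHE3-/- colon, against 362, 219 and 659 in NHE3+/+ colon. The groups did not overlap, with NHE3-/- array 3 and NHE3+/+ array 3 nearest each other, and the means differed by 3.27-fold. Its log2 fold change was 1.70 (adjusted p = 0.0100, SE 0.34). The call was lost with NHE3-/- array 3 alone, at 1.08 (adjusted p = 0.182), with log2 Xist signal as a covariate, at 1.07 (adjusted p = 0.167), and without a trend (adjusted p = 0.0678).

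Cyp3a13, an intestinal member, had signals of 6902, 3958 and 11105 in NHE3-/- colon, against 2510.4, 3061 and 4393 in NHE3+/+ colon. NHE3-/- array 2 fell below NHE3+/+ array 3, so the groups overlapped. The log2 fold change of 1.05 (adjusted p = 0.0511, SE 0.31) was just outside the threshold, and it was called in 9 of the 18 alternative fits. These included leaving out NHE3-/- array 2, which gave 1.43 (adjusted p = 0.00714), or NHE3+/+ array 3, which gave 1.27 (adjusted p = 0.0481). Leaving out NHE3-/- array 3 gave 0.69 (adjusted p = 0.140). Cyp3a11, a main target of the pregnane X receptor in liver, had signals of 191, 88.9 and 141 in NHE3-/- colon, against 86.6, 116 and 772 in NHE3+/+ colon. One array, NHE3+/+ replicate 3, stood far above the other 5, and the log2 fold change was -0.53 (adjusted p = 0.598, SE 0.59). Without that array it turned to 0.33 (adjusted p = 0.607). The same array had the highest signals of Apoa4 and Lct, lipid-absorption and lactase transcripts of the small intestine. The other small-intestine markers read here, Apoa1, Fabp2, Fabp6, Alpi and Gata4, each had their highest signal on another array. Apoa4 had signals of 1797, 2105 and 1241 in NHE3-/- colon, against 587, 253 and 3119.7 in NHE3+/+ colon, and Lct had signals of 73.9, 89.3 and 83.4 in NHE3-/- colon, against 59.8, 41.9 and 315 in NHE3+/+ colon. Whether small-intestinal tissue contributes to the Cyp3a11 signal was not tested.

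**Figure D3:**
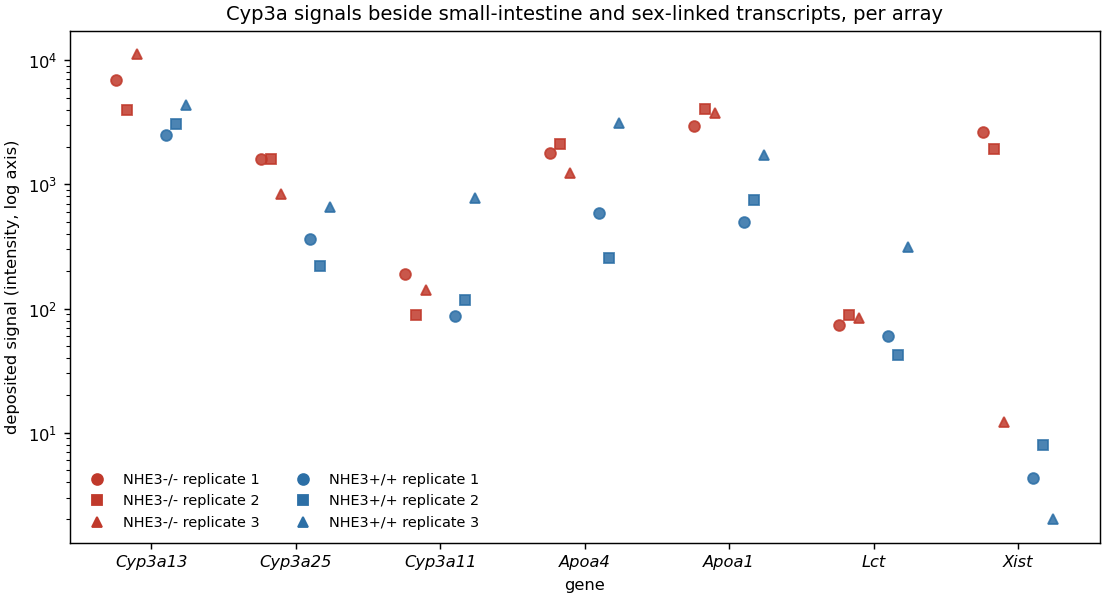
Deposited signal (intensity, log axis) of Cyp3a13, Cyp3a25 and Cyp3a11, of the small-intestine transcripts Apoa4, Apoa1 and Lct and of Xist on each array, NHE3-/- left of NHE3+/+ and replicate 1, 2 and 3 as circle, square and triangle. NHE3+/+ replicate 3 is the highest array for Cyp3a11 (772), Apoa4 (3120) and Lct (315), but not for Apoa1. NHE3-/- replicate 3 lacks the Xist signal of the other NHE3-/- arrays.

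Family 4 had 13 genes on the array, of which 7 passed the filter, 2 were higher and none lower. Over all genes tested, 6.42% were called higher and 7.55% lower. Cyp4f16 had signals of 5315, 5166 and 6575 in NHE3-/- colon, against 2093, 2048 and 2393 in NHE3+/+ colon, 2.61-fold apart in the means, with a log2 fold change of 1.37 (adjusted p = 8.28e-05, SE 0.12). A dimmer probe set of Cyp4f16 was called higher as well, at 0.92 (adjusted p = 0.00548). Cyp4f14, which in the mouse inactivates leukotriene B by omega-hydroxylation, had signals of 5796, 4269 and 5853 in NHE3-/- colon, against 2324, 2501 and 2105 in NHE3+/+ colon, 2.30-fold apart, with a log2 fold change of 1.18 (adjusted p = 0.000448, SE 0.14). In both genes every NHE3-/- signal lay far above the NHE3+/+ range. The flanking Cyp4f13 had overlapping signals and a log2 fold change of 0.35 (adjusted p = 0.276), and Cyp4f39, an enzyme of skin lipids, had 0.43 (adjusted p = 0.402).

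Cyp4b1, known for activating lung toxicants, had signals of 5123, 3235 and 3085 in NHE3-/- colon, against 2494, 1797 and 3264 in NHE3+/+ colon. Its groups overlapped, NHE3-/- array 1 was the highest, and the log2 fold change was 0.60 (adjusted p = 0.113, SE 0.22). It was 0.36 without NHE3-/- array 1 and 0.38 without NHE3+/+ array 2. Cyp4v3, the mouse counterpart of human CYP4V2, had a log2 fold change of 0.24 (adjusted p = 0.449). Cyp4a31, of the subfamily that PPAR alpha induces in liver, had -0.32 (adjusted p = 0.547). The other 6 genes of the family, Cyp4a12a, Cyp4a14, Cyp4f15, Cyp4f18, Cyp4f41-ps and Cyp4x1, were below the filter.

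**Figure D4:**
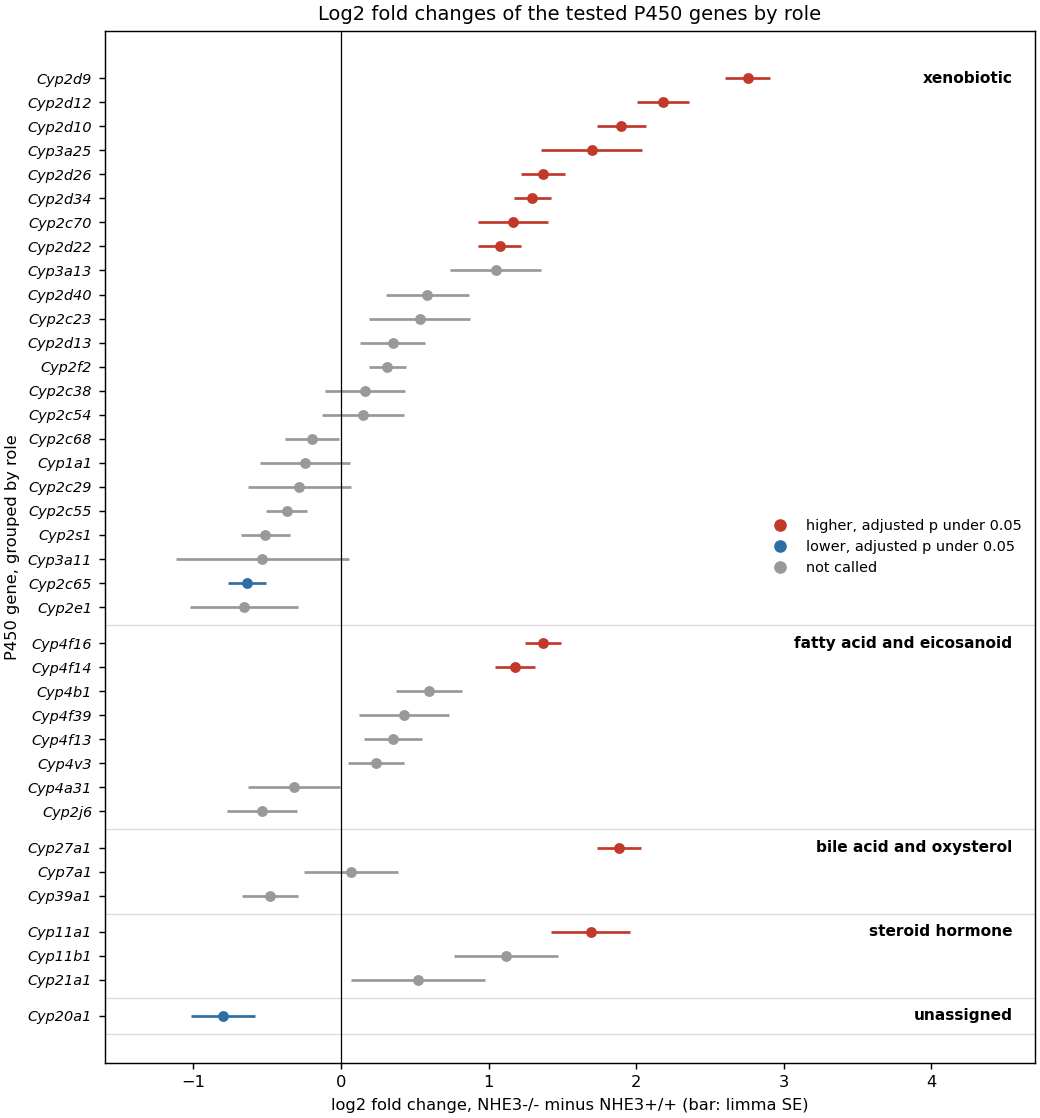
Log2 fold change, NHE3-/- minus NHE3+/+, of the 38 tested P450 genes grouped by role (bar: limma SE), red for higher, blue for lower and grey for not called. Points run from -0.80 for Cyp20a1 to 2.75 for Cyp2d9, and of the 23 tested xenobiotic genes 8 are called higher and 1 lower. Over all genes tested, 6.42% are called higher and 7.55% lower.

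Of 6 genes of bile acid and oxysterol synthesis, 3 passed the filter and 1 was called, beside 14.0% of all genes tested. With 3 genes tested, this count says little of the role as a whole. Cyp27a1, a mitochondrial hydroxylase of the sterol side chain, had signals of 1814, 1504 and 1691 on NHE3-/- arrays 1, 2 and 3, against 367, 506 and 422 on NHE3+/+ arrays 1, 2 and 3. The lowest NHE3-/- signal was well above the highest NHE3+/+ signal, with a 3.87-fold difference in the means. The log2 fold change was 1.88 (adjusted p = 3.57e-05, SE 0.15). Averaging it with its second, dim probe set gave 1.19, still called. Cyp39a1, which hydroxylates oxysterols, had signals of 294, 309.6 and 243 in NHE3-/- colon, against 494, 339.7 and 395 in NHE3+/+ colon, all NHE3-/- values lower, with a log2 fold change of -0.48 (adjusted p = 0.128) that was not called. Cyp7a1, the rate-limiting enzyme of bile acid synthesis in liver, was dim and overlapped, at 0.07 (adjusted p = 0.914). Cyp7b1, Cyp8b1 and Cyp46a1, which hydroxylate oxysterols, bile acid precursors and brain cholesterol, were below the filter.

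Of 5 genes of steroid hormone synthesis, 3 passed the filter and 1 was called, beside 14.0% of all genes tested. This count too rests on only 3 genes. Cyp11a1, which cuts the cholesterol side chain to make pregnenolone, had signals of 314, 251 and 258 in NHE3-/- colon, against 50.8, 98.1 and 46.9 in NHE3+/+ colon. The groups did not overlap, the means differed by 4.20-fold, and the log2 fold change was 1.69 (adjusted p = 0.00297, SE 0.27). Its other 2 probe sets were below the filter and did not show this difference, and averaged with them the gene fell below the filter and was not called. They had 22.9, 13.1 and 4.4 in NHE3-/- colon, against 28, 107 and 7 in NHE3+/+ colon, and 20.6, 6.8 and 9.6 in NHE3-/- colon, against 3.2, 14.9 and 49.1 in NHE3+/+ colon. Leaving out NHE3-/- arrays 1 and 2 gave 1.62, not called (adjusted p = 0.0601).

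Cyp11b1, which completes corticosterone synthesis, had signals of 110, 86.8 and 123 in NHE3-/- colon, against 47.7, 11.2 and 43.4 in NHE3+/+ colon, not overlapping, with a log2 fold change of 1.12 (adjusted p = 0.0654, SE 0.35) that was not called. Cyp21a1, the steroid hydroxylase acting before it, overlapped, at 0.52 (adjusted p = 0.494). Cyp17a1 and Cyp11b2, of androgen and aldosterone synthesis, were below the filter. Adrenal cortex markers were read beside Cyp11a1, and none passed the test. Star, which carries cholesterol into mitochondria, had signals of 136, 134 and 162 in NHE3-/- colon, against 167, 123 and 123 in NHE3+/+ colon, with a log2 fold change of 0.06 (adjusted p = 0.897), and Hsd3b1, Mc2r and Nr5a1 were below the filter. The summed signal of these 4 markers was 212 to 269 in NHE3-/- colon, against 202 to 225 in NHE3+/+ colon.

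Cyp20a1, a P450 with no established substrate, was the second gene called lower. It had signals of 464, 662 and 346 in NHE3-/- colon, against 1051, 771 and 756 in NHE3+/+ colon, a non-overlapping difference with a log2 fold change of -0.80 (adjusted p = 0.0395, SE 0.22). This call was lost in 11 of 18 alternatives. Among them were leaving out NHE3-/- array 1 (-0.78, adjusted p = 0.0948) or 3 (-0.59, adjusted p = 0.123), and leaving out NHE3+/+ array 1 (-0.65, adjusted p = 0.111), 2 (-0.87, adjusted p = 0.0820) or 3 (-0.88, adjusted p = 0.0665). Its other 2 probe sets had log2 fold changes of -0.36 and -0.59 and were not called.

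The 33 genes below the filter had signals of 1 to 120.3, and none had a mean above 59.2. They included Cyp26a1 and Cyp26b1, which break down retinoic acid, and Cyp27b1 and Cyp2r1, which activate vitamin D. They also included Cyp1a2 and Cyp1b1 of family 1, and Cyp2b10, the usual target of the receptor CAR in liver. These genes were not tested in the main fit, and with no filter none of them was called. Signals of 31 overlapped between genotypes, while those of Cyp2j5 were all higher and those of Cyp27b1 all lower in NHE3-/- colon. Among genes that passed the filter, 14.8% were separated in this way upward and 22.0% downward. Both genes were dim, at 2.9 to 56.7 for Cyp2j5 and 2.2 to 23.8 for Cyp27b1. The other Cyp2j5 probe set overlapped between genotypes, so neither separation is read as a difference.

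Genes that supply P450 enzymes with electrons, haem or cholesterol, break haem down or take over P450 products mostly did not pass the test. The list also held Tbxas1 and Ptgis, P450 enzymes whose symbols do not start with Cyp. Of 20 listed, 17 had a probe set of their own, 14 passed the filter, 1 was higher and 2 were lower, with a median log2 fold change of -0.07. The share called among all genes tested was 14.0%. Alas1, the rate-limiting enzyme of haem synthesis, had signals of 6819, 7582 and 6789.5 in NHE3-/- colon, against 5155, 5242 and 5227 in NHE3+/+ colon, not overlapping, with a log2 fold change of 0.44 (adjusted p = 0.0147, SE 0.09). This call was lost in 6 of 18 alternatives, among them leaving out NHE3-/- array 2 (0.38, adjusted p = 0.0553) and NHE3-/- array 3 alone (adjusted p = 0.157). Cyb5r3, a microsomal reductase that passes electrons from NADH, was lower at -0.41 (adjusted p = 0.0319), a call lost in 13 of 18 alternatives. Pgrmc2, a haem-binding membrane protein, was lower at -0.43 (adjusted p = 0.0401), a call lost in 14 of 18. With NHE3-/- array 3 alone, Cyb5r3 and Pgrmc2 had adjusted p of 0.155 and 0.123. Tbxas1 had signals of 103, 88.2 and 189 in NHE3-/- colon, against 39.7, 75.8 and 72.8 in NHE3+/+ colon. These did not overlap, but its log2 fold change of 0.72 (adjusted p = 0.187) was not called, and Ptgis was below the filter. Por, the main reductase of microsomal P450 enzymes, Fdxr and Fdx2 were not analysed here.

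Of 36 listed regulators of P450 transcription, 33 had a probe set of their own, 28 passed the filter, 4 were higher and 1 was lower, with a median log2 fold change of 0.08. For comparison, 14.0% of all genes tested were called in either direction. Nr1i3, which encodes the xenobiotic receptor CAR, had signals of 199, 194 and 282 in NHE3-/- colon, against 92.5, 74.7 and 89.4 in NHE3+/+ colon. All NHE3-/- values were above the NHE3+/+ range, with a log2 fold change of 1.12 (adjusted p = 0.0147, SE 0.24). Without NHE3-/- array 3 it was 0.96 and not called (adjusted p = 0.0667). Nr1h3, encoding the oxysterol receptor LXR alpha, was higher at 0.83 (adjusted p = 0.0120), a call lost with NHE3-/- array 3 alone (0.92, adjusted p = 0.0770) and with Xist as a covariate (0.91, adjusted p = 0.0544). Nr1h4, encoding the bile acid receptor FXR, was higher at 0.52 (adjusted p = 0.0379), and Ppard, a fatty acid receptor, at 0.46 (adjusted p = 0.0406). Nr2f2, a mesenchymal orphan receptor, was lower at -0.66 (adjusted p = 0.0233). The calls of Nr1h4, Ppard and Nr2f2 were lost in 10, 11 and 11 of 18 alternatives, each on leaving out NHE3-/- array 1 or 2 or NHE3+/+ array 2. Ppard also lost its call without NHE3-/- array 3 or NHE3+/+ array 1, Nr1h4 without NHE3+/+ array 1 and Nr2f2 without NHE3+/+ array 3. With NHE3-/- array 3 alone their adjusted p was 0.360, 0.0798 and 0.191 in that order. Other xenobiotic and hepatic factors were not called. Nr1i2, encoding the pregnane X receptor, had a log2 fold change of 0.23 (adjusted p = 0.380), Ahr had -0.07 (adjusted p = 0.794), and Hnf4a had 0.23 (adjusted p = 0.139).

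Of 21 listed genes that make, bind or carry the retinoids on which family 26 acts, 14 passed the filter, 3 were higher and 1 was lower. Among all genes tested, 14.0% were called in either direction. Rbp2, the retinol-binding protein of intestinal absorptive cells, had signals of 2178, 1908 and 2632 in NHE3-/- colon, against 465, 642 and 866 in NHE3+/+ colon, with a log2 fold change of 1.75 (adjusted p = 0.000436, SE 0.20). Rdh10 and Adh1, which oxidise retinol, were higher at 0.57 (adjusted p = 0.0111) and 0.54 (adjusted p = 0.0114), Rdh10 losing its call without NHE3-/- array 1 (0.49, adjusted p = 0.0513) and with NHE3-/- array 3 alone (adjusted p = 0.105). Rbp4, the plasma retinol carrier made by liver and fat, had signals of 405, 593 and 356 in NHE3-/- colon, against 1442, 1139.9 and 1234 in NHE3+/+ colon, with a log2 fold change of -1.46 (adjusted p = 0.000790, SE 0.19). The groups were apart in both Rbp2 and Rbp4, in opposite directions.

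Markers of organs rich in P450 enzymes were also read, beside the 14.0% of all genes tested that were called. Of 5 tested hepatocyte markers 1 was higher, Tat, with signals of 1214, 1093 and 1029.9 in NHE3-/- colon, against 506, 689 and 667 in NHE3+/+ colon. The liver's defining product Alb had signals of 79.5, 4.2 and 70.4 in NHE3-/- colon, against 108, 162 and 88.8 in NHE3+/+ colon, no higher in NHE3-/- colon, and Ahsg and Fgb were below the filter. The sum of the 7 hepatocyte markers with a probe set, to which Tat gave the largest part, was 1681 to 2101 in NHE3-/- colon, against 1417 to 1537 in NHE3+/+ colon. Of 7 small-intestine markers 1 was higher, the apolipoprotein Apoa1, with signals of 2932, 4042 and 3779 in NHE3-/- colon, against 499.8, 753 and 1729.8 in NHE3+/+ colon. Their median log2 fold change was 0.66. Their sum, most of it Fabp2, was 26308 to 35170 in NHE3-/- colon, against 26618 to 35010 in NHE3+/+ colon. The part of such tissue in the P450 differences was not tested.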

How the data were processed

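Per the labels, biotin-labelled cRNA of whole colon was hybridised to 6 single-label arrays, 3 for NHE3-/- and 3 for NHE3+/+ mice. The deposited values are linear intensities, with 1 signal for each probe set. The submitters' processing notes name GCOS without a version, and its settings and detection calls are not given in the sources used here. Every array had a mean of 500 once 2% was trimmed at both ends, and array medians were 97.8 to 121.4.

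From these intensities log2(signal + 31.4) was computed, 31.4 being the 25th percentile of all values. The filter removed 64 control probe sets and every set whose mean on this scale fell below the 40th percentile. limma 3.58.1 in R 4.3.3 (lmFit, eBayes with a trend, two-sided, genotype as the only term) was fitted to the 27024 left, with no further normalization and Benjamini-Hochberg adjustment over all of them. The fit was tested on simulated data.

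The platform annotation supplied gene names, 1 for 34958 probe sets, several for 932 and none for 9211. All 93 P450 probe sets matched RefSeq GRCm38.p6. The members, roles and lists were chosen with earlier results of these data known. Named are all called P450 genes, the brightest and most changed tested member of each family, the 12 brightest, called members of the partner, regulator and retinoid lists, other probe sets that differ, and genes behind counts of 5 or fewer. Further genes not called were added to fill out a family. In all 18 alternatives were run, 1 of them (equal log2 medians) chosen after seeing the data. The number of arrays limits precision. No group held over 3 arrays, so none was screened for outlying samples.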

Additional observations from a re-analysis of the deposited data

How the results depend on the processing

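Cyp2d9, Cyp2d10, Cyp2d12, Cyp2d22, Cyp2d26, Cyp2d34, Cyp4f14, Cyp4f16 and Cyp27a1 were called higher in all 18 alternatives, and no called P450 gene changed direction. P450 genes called higher numbered 10 to 13. The 2 called lower became 1 with no filter, with medians or log2 medians set equal and with probe sets averaged. They became 0 without a trend, where 4 were lower at an unadjusted p under 0.05. With Xist as a covariate 3 were lower, Cyp2j6 being added. Quantile normalization kept the count at 2, but with Cyp2c55 in place of Cyp20a1. Leaving out NHE3+/+ array 1 likewise put Cyp2s1 in place of Cyp20a1. Leaving out 1 array at a time gave 12 to 13 higher and 1 to 2 lower, and 839 to 1211 probe sets higher and 775 to 1385 lower in all. Below the threshold throughout, Cyp1a1 turned to 0.038 and 0.054, Cyp21a1 to -0.37 and -0.42, and Cyp2c68 to 0.083 and 0.076, with NHE3-/- array 3 alone and with Xist as a covariate. Leaving out 1 array moved Cyp7a1 between -0.19 (without NHE3+/+ array 1) and 0.24, and it was -0.05 without NHE3-/- array 3. The causes were not tested.

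All calls numbered 1342 higher and 1685 lower. Setting medians equal gave 1595 and 738, log2 medians 1595 and 839, quantile normalization 1338 and 1332, no filter 1075 and 1128, no trend 511 and 558, and NHE3-/- array 3 alone 767 and 1268. Equal medians moved the median log2 fold change of all probe sets to 0.01, against -0.10. Same-numbered arrays did not deviate together (correlations 0.03, -0.04 and 0.003), so no pairing by number was seen. Correlations over all tested probe sets could miss a pairing that is weak or limited to few genes. With the replicate number as a block, 13 P450 genes were higher and 2 lower, and 1156 and 1384 probe sets in all. Low signal limits what can be said of the 33 genes below the filter.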
